A study of Mus musculus with 24 samples.

Results

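The guanylate-binding proteins were measured as messenger RNA in the right liver lobe of 24 young mice. The family was represented by 10 genes, Gbp2, Gbp3, Gbp4, Gbp5, Gbp6, Gbp7, Gbp8, Gbp9, Gbp10 and Gbp11, found by their gene name on the array, out of 18633 genes that could be tested. Probes were chosen by their mean Cy5 signal over all arrays, the brightest for each gene, and the family itself was picked with earlier results of these data known. The signal means ran from 121 to 1100 units, and since they also depend on the probe they are not compared between genes. Only Gbp5 and Gbp8 had a second probe, at a mean signal of 124 against 726 for Gbp5 and of 65.3 against 158 for Gbp8. All 10 genes were well above background on each of the 24 arrays.

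All mice were C57BL/6JRcc females, housed singly, and ate one of 2 semi-synthetic diets from 3 to 6 weeks of age. Monosaccharide gave 32% of the energy in both diets and was glucose alone (GLU, 12 mice) or equal parts of glucose and galactose (GLU+GAL, 12 mice). Starch gave 32%, protein 20% and fat 16% of the energy in both. The liver was taken at postnatal day 42 from mice without food, and the study asked how galactose in place of part of the glucose affects the liver after weaning. Each mouse was hybridised in Cy5 against a Cy3 pool of all mice, so that a log2 ratio of 0 is the level of the pool and a value of 1 is a level that is 2 times that of the pool. The arrays lay on 3 slides, each with 4 mice of either diet.

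Guanylate-binding proteins are large GTPases of the dynamin superfamily that cells make when they receive interferon-gamma. They assemble on the membranes of intracellular pathogens and on the vacuoles that hold them, where they act with the immunity-related GTPases, the smaller interferon-induced GTPases of the mouse, and can lead to activation of inflammasomes. Interferon-gamma comes mainly from T and NK cells, and its receptor signals through the kinases JAK1 and JAK2 to transcription factors that bind promoters of the family, IRF1 among them. In liver, macrophages, endothelial cells and hepatocytes can all carry the response.

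In the RefSeq gene table the 10 genes formed 2 clusters. On chromosome 3 the order was Gbp5, Gbp7, Gbp3, Gbp2b and Gbp2, of which Gbp2b was not among the genes chosen. On chromosome 5 it was Gbp8, Gbp9, Gbp4, Gbp10, Gbp6 and Gbp11, and Gbp11 was listed there as a transcribed pseudogene. The promoter table held 4 of the 10 genes, all of the chromosome 3 cluster. The 250 bases before the start site are shown for these 4, because each held an interferon motif in that window. Capitals mark 2 motifs, searched on both strands: TTCNNNGAA, the gamma-activated sequence, and the interferon-stimulated response element (ISRE), bound by interferon regulatory factors and searched as GAAA, any 2 bases and GAAA again. The sequences are from RefSeq on GRCm38.p6, on the plus strand, which is the strand of these genes.
Gbp7, chr3:142530086-142530335: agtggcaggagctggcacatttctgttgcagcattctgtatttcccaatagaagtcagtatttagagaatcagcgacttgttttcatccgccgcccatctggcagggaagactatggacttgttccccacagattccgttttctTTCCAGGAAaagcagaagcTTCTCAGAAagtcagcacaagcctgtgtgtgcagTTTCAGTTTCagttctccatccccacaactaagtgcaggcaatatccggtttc
Gbp5, chr3:142496684-142496933: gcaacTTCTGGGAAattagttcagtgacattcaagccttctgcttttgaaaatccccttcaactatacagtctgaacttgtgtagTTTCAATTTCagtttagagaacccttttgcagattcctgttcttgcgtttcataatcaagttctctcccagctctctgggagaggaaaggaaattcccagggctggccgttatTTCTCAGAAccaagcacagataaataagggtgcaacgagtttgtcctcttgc
Gbp3, first start, chr3:142559794-142560043: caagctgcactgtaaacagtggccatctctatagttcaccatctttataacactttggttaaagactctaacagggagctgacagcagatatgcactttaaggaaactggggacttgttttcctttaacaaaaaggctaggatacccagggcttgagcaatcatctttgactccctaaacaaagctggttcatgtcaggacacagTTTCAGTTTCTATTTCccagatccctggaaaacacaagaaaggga
Gbp2, chr3:142620413-142620662: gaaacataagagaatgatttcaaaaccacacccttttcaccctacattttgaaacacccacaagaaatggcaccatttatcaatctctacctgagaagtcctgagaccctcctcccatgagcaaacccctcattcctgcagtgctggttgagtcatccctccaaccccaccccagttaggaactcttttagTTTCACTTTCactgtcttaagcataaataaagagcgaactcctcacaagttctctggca

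Gbp7 held TTCNNNGAA at -106 and -87 from its start and the ISRE, read on the opposite strand, at -53. Gbp5 held TTCNNNGAA at -245 and -52 and the ISRE, again on the opposite strand, at -165. The first start of Gbp3 held the ISRE at -45 and at -39, 2 matches that overlap each other, and its second start held neither motif. Gbp2 held the ISRE at -59. Over all 32851 promoters in the table, in windows of 300 bases that reach 50 bases past the start, 8.30% held TTCNNNGAA, 3.44% held the ISRE and 0.454% held both. These matches describe the sequence and show no binding in these livers.

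The probe sequences also bear on what was measured. The probe of Gbp9 spanned 242 bases of the genome (mm9 build, chr5:105523238-105523479, minus strand) with 60 bases of its own, and the scanner files listed it for transcripts of Gbp9, Gbp10, Gbp6 and Gbp4. It is shown whole because its level can hold that of 4 genes.
Gbp9 probe: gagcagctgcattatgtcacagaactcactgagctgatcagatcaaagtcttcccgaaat
The probe of Gbp10 was listed for Gbp10 and Gbp6, and that of Gbp8 for Gbp8 and Gbp11. These 3 genes are uncertain as single genes for that reason. Among the 10 probes used, the longest run that any pair shared was 9 bases, between Gbp4 and Gbp10. The probes of Gbp2, Gbp3, Gbp4, Gbp6, Gbp7 and Gbp11 were each listed for 1 gene.

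On the diet with galactose, 9 of the 10 genes had a lower mean than on glucose alone, against 49.2% of all genes tested. The median of the 10 differences, GLU+GAL minus GLU, was -0.21 on the log2 scale, where the median over all genes was 0.0013. None of the 10 passed the threshold of 0.05 on limma's Benjamini-Hochberg adjusted p, and neither did any of the 18633 genes, 0% called, with a lowest adjusted p of 0.515. At an unadjusted p under 0.05, 4 of the 10 had a lower mean and none a higher mean. The background at that level was 2.65% of genes lower, 1.66% higher and 4.31% in either direction. Given how the family was picked, these counts are a description.

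Gbp7, Gbp6, Gbp11 and Gbp2 had the largest differences with the processing used. With Agilent's processed signals Gbp8, at -0.39, differed more than Gbp2, at -0.35. Gbp7 takes part in defence against bacteria inside macrophages. Its log2 ratio ran from -0.16 through a median of 0.13 to 1.52 on GLU and from -0.47 through -0.14 to 0.31 on GLU+GAL. The highest GLU mouse was GLU 11, 11 of 12 GLU+GAL values were under the GLU mean, 5 were under every GLU value, and the groups overlapped. The difference was -0.42 ± 0.14 (SE, n = 12 mice per diet), with a 95% confidence interval from -0.70 to -0.14, an unadjusted p of 0.00496 and an adjusted p of 0.983 in limma. That is a 1.33-fold higher mean level on GLU.

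Gbp6 is one of the chromosome 5 genes and had the widest range over the 24 mice, 5.88-fold from lowest to highest. On GLU its log2 ratio ran from -0.32 through 0.15 to 1.85, and on GLU+GAL from -0.71 through -0.13 to 0.39. Again GLU 11 was highest, with the next GLU mouse at 0.59, and the groups overlapped. Gbp6 differed by -0.45 ± 0.17 (SE), with an interval from -0.79 to -0.10 and an unadjusted p of 0.0142.

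Gbp11, the transcribed pseudogene, ran from -0.70 through -0.22 to 0.92 on GLU and from -1.02 through -0.46 to 0.22 on GLU+GAL. On GLU+GAL, 11 of 12 values were under the mean of GLU, but only 1 was under its lowest value. Its difference was -0.40 ± 0.16 (SE), with an interval from -0.74 to -0.07 and an unadjusted p of 0.0208. Gbp2, which is lipid-modified at its C-terminus and collects on the vacuoles of Toxoplasma, ran from -0.21 through 0.19 to 1.31 on GLU and from -0.39 through -0.11 to 0.50 on GLU+GAL. GLU 11 and GLU+GAL 11 were the highest mice of their diets. Its difference was -0.32 ± 0.13 (SE), with an interval from -0.59 to -0.05 and an unadjusted p of 0.0206. The adjusted p of Gbp6, Gbp11 and Gbp2 was 0.999 in limma.

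Gbp3, Gbp4 and Gbp8 had differences of about the same size as each other, and each of their 95% intervals held 0. Gbp3 ran from -0.48 through -0.28 to 1.19 on GLU and from -0.79 through -0.40 to 0.33 on GLU+GAL, a difference of -0.22 ± 0.16 (SE; interval -0.55 to 0.11). Gbp4 ran from -0.45 through -0.10 to 0.76 on GLU and from -0.62 through -0.27 to -0.01 on GLU+GAL, a difference of -0.20 ± 0.10 (SE; interval -0.41 to 0.0056). In both genes the single mouse GLU 11 stood far above the rest of its diet, whose next value was 0.45 for Gbp3 and 0.17 for Gbp4. Gbp8 ran from -0.52 through 0.0010 to 0.57 on GLU and from -0.69 through -0.18 to 0.26 on GLU+GAL, a difference of -0.21 ± 0.11 (SE; interval -0.44 to 0.03). GLU 11 was highest here too, but the next GLU mouse was at 0.30. The second probe of Gbp8, listed for Gbp8 alone, was well above background on only 5 of 24 arrays. It differed by -0.07 ± 0.06 (SE) between the diets. Its r with the probe used was 0.49, with diet means not removed, and this probe was looked at after seeing the data.

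Gbp9, Gbp10 and Gbp5 differed least between the diets with the processing used. Gbp9 ran from -0.17 through 0.08 to 0.71 on GLU and from -0.30 through 0.04 to 0.42 on GLU+GAL, a difference of -0.08 ± 0.08 (SE; interval -0.25 to 0.09). Gbp10 ran from -0.08 through 0.36 to 0.68 on GLU and from 0.07 through 0.30 to 0.68 on GLU+GAL, a difference of -0.0066 ± 0.08 (SE; interval -0.18 to 0.17). Both probes were among those listed for several genes, and Gbp10 had the narrowest range of the family, 1.69-fold over the 24 mice. Gbp5, which promotes assembly of the NLRP3 inflammasome, ran from -0.66 through 0.01 to 0.59 on GLU and from -0.73 through 0.08 to 0.79 on GLU+GAL. It was the one gene with a higher mean on GLU+GAL, by 0.07 ± 0.15 (SE; interval -0.24 to 0.38), and the one whose highest GLU mouse was GLU 2 and not GLU 11. With the processing used here, the intervals of Gbp9 and Gbp10 leave out a difference as large as the -0.42 estimated for Gbp7. The interval of Gbp7 itself, from -0.70 to -0.14, overlaps both, and no test of a difference between genes was made. The difference of Gbp9 was larger in some other settings, at -0.27 ± 0.17 (SE) with Agilent's processed signals and -0.23 ± 0.09 with Cy5 alone. The interval of Gbp9 therefore does not settle how large its difference is.

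**Figure D1:**
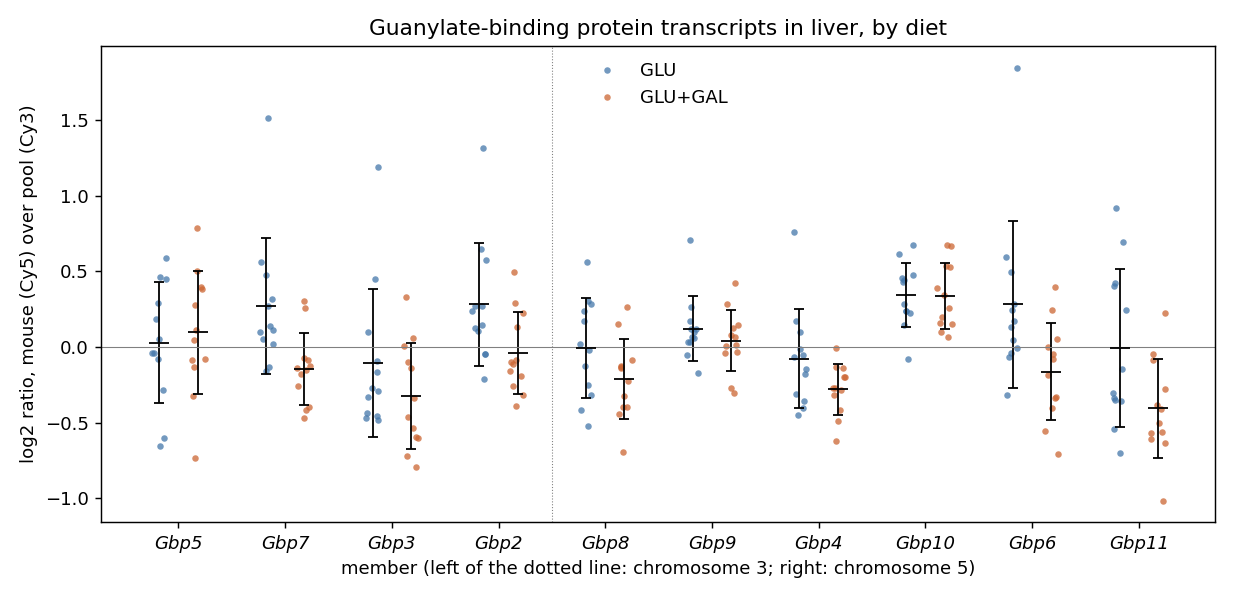
The log2 ratio of mouse over pool (vertical axis) is plotted for the 10 genes in each of 12 GLU and 12 GLU+GAL mice, 1 point per mouse, with the mean and SD of each diet. The diets overlap in every gene, and GLU 11 is the highest point in 9 of the 10 genes.

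The mouse GLU 11 had the highest level of all 24 mice in every gene but Gbp5. The mean of the 10 log2 ratios was 0.92 in GLU 11, and the next GLU mice were GLU 3 at 0.27 and GLU 5 at 0.24. Over the 12 GLU mice this mean was 0.11 ± 0.30 (SD, n = 12), and over the 12 GLU+GAL mice it was -0.11 ± 0.20 (SD, n = 12). On GLU+GAL the highest mouse was GLU+GAL 11 at 0.32 and the lowest was GLU+GAL 7 at -0.38. The mice GLU+GAL 7, GLU+GAL 8 and GLU+GAL 9 were each among the lowest 3 mice in 5 of the 10 genes.

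Without GLU 11, the difference of the means over the 10 genes went from -0.22 to -0.15, and 8 of the 10 genes kept a lower mean on GLU+GAL. The single genes went to -0.30 for Gbp7 and for Gbp6, -0.32 for Gbp11 and -0.23 for Gbp2. Gbp3 went to -0.10, Gbp4 to -0.12 and Gbp9 to -0.03, each a drop in size of more than 1.5 times, while Gbp10 turned to 0.02. The spread depended on the same mouse. In 8 of the 10 genes the SD was larger on GLU than on GLU+GAL, and without GLU 11 this held in 3. The share of all genes with a larger SD on GLU was not counted, so these counts are a description.

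**Figure D2:**
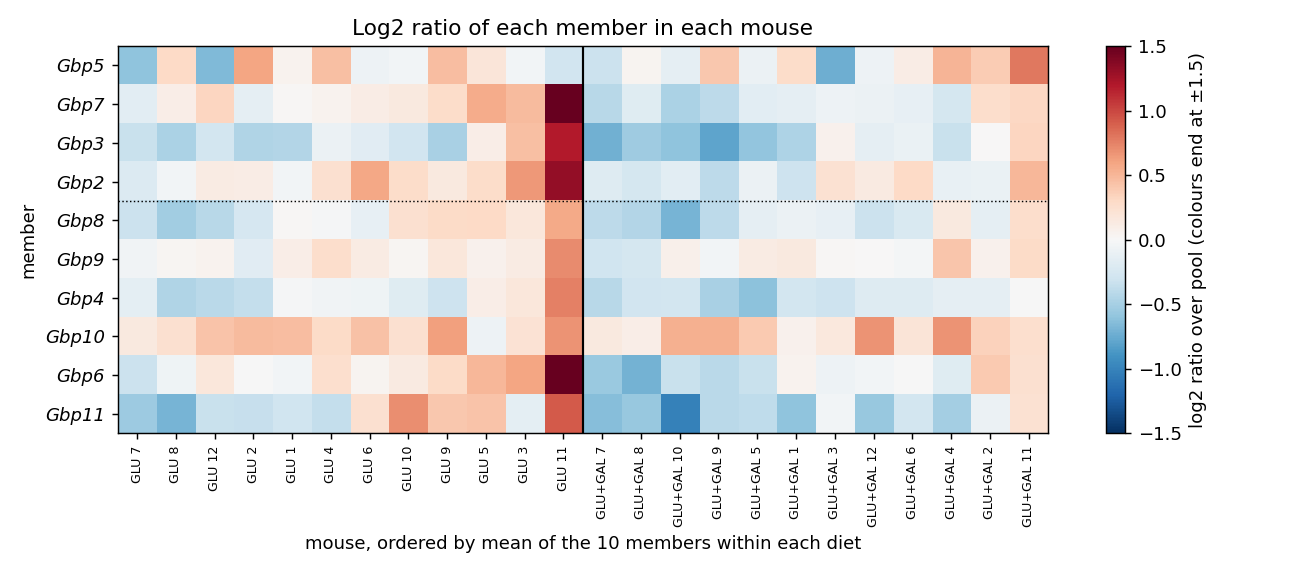
Log2 ratios of the 10 genes (rows, in chromosome order) in each of the 24 mice (columns, by diet and by family mean), from blue for below the pool to red for above it. The column of GLU 11 is red in every gene but Gbp5, and the rows of Gbp5 and Gbp10 do not follow the pattern of the others.

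Within a diet, the family varied more between mice than most genes did. The within-diet SD of the log2 ratio was 0.45 for Gbp6, 0.44 for Gbp11, 0.43 for Gbp3 and 0.40 for Gbp5, against a median of 0.169 over all genes tested. By this SD, 7 of the 10 genes lay among the top 10% of genes, at percentiles from 92.4 for Gbp8 to 98.3 for Gbp6. Gbp4 lay at percentile 87.4, Gbp10 at 75.0 and Gbp9 at 72.3. This order depends on the processing. Gbp9, Gbp8 and Gbp4 had the dimmest probes used, with mean signals of 121, 158 and 183. With Agilent's processed signals the SE of their diet difference was 0.17, 0.21 and 0.17, against 0.08, 0.11 and 0.10 here, and it rose less in the others. Whether the offset of 50 lowered the spread of dim probes was not tested. Without GLU 11, 4 of the 10 genes were among the top 10%: Gbp5, Gbp11, Gbp3 and Gbp6. The SD then went to 0.29 for Gbp6 and from 0.36 to 0.23 for Gbp7, each by more than 1.5 times, and Gbp4 and Gbp9 lay at percentiles 60.6 and 47.7. Diet accounted for between 0.026% of the variance, in Gbp10, and 26.8%, in Gbp7. Slide accounted for between 0.44%, in Gbp2, and 11.1%, in Gbp5. The diet by slide term took between 0.61%, in Gbp2, and 19.3%, in Gbp4. Mice of 1 diet on 1 slide held 59.7% of the variance in Gbp4, 63.0% in Gbp7 and at least 73.4% in each of the other 8 genes.

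The 3 slides are the batches that the data carry. No member had a slide effect at an unadjusted p under 0.05 in limma's F test, where 6.56% of all genes did, and the lowest such p was 0.243, for Gbp5. None had a diet by slide interaction at that level either, against 8.45% of all genes, the lowest being 0.0542 for Gbp4. On each of the 3 slides alone, 6 of the 10 genes had the lower mean on GLU+GAL, against 11.8% of all genes. These were Gbp2, Gbp6, Gbp7, Gbp8, Gbp9 and Gbp11. The size of the difference was not the same from slide to slide. Gbp7 differed by -0.14 on slide 1, -0.71 on slide 2 and -0.40 on slide 3, and Gbp6 by -0.24, -0.65 and -0.44. Slide 2 carried GLU 11. Gbp2 was the most even, at -0.30, -0.40 and -0.27. Gbp3 was at 0.10, -0.57 and -0.18, Gbp4 at 0.06, -0.52 and -0.14, and Gbp5 at 0.33, 0.21 and -0.32.

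Most of the genes varied together between mice of the same diet. With the diet means removed, Pearson's r over the 24 mice had a median of 0.64 over the 45 pairs of genes, and Spearman's rho a median of 0.50. Over all pairs of 18486 tested genes the median r was 0.009, and 1.24% of pairs reached the median of the family. The highest pair was Gbp6 and Gbp7, which lie on different chromosomes, at r = 0.93 and rho = 0.87. By a 2-sided permutation test with 100000 resamples its p was 1e-05 for r and for rho, the smallest that these permutations can give, and after Benjamini-Hochberg adjustment over the 45 pairs 9e-05 and 0.000113. Gbp2 and Gbp3, both of chromosome 3, had an r of 0.89 and a rho of 0.80, with a permutation p of 2e-05 for both and 0.00015 after adjustment. Gbp8 and Gbp11 had an r of 0.81 and a rho of 0.80, with a permutation p of 1e-05 and adjusted values of 9e-05 and 0.000113. Their probes are not independent, because that of Gbp8 was also listed for Gbp11. The median r was 0.39 over the 6 pairs within the chromosome 3 cluster, 3 of which hold Gbp5. It was 0.65 over the 15 pairs within that of chromosome 5 and 0.63 over the 24 pairs between them. The chromosome 5 pairs include those whose probes were listed for each other's genes: Gbp9 with Gbp4, Gbp6 and Gbp10, Gbp10 with Gbp6, and Gbp8 with Gbp11. No test of these differences was made, and the part of shared probe signal in them was not tested.

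The strength of these correlations rested in part on 1 mouse. Without GLU 11 the median r over the 45 pairs was 0.41, and without the 2 mice farthest from the median of the first gene of each pair it was 0.36. For Gbp6 and Gbp7, r was 0.80 without the 2 farthest mice and 0.83 without GLU 11, and for Gbp2 and Gbp3 it was 0.76 and 0.81. Gbp8 and Gbp11 kept an r of 0.73 and 0.77. On slides 1, 2 and 3 alone, Gbp6 and Gbp7 had an r of 0.83, 0.98 and 0.88. The median of the family was 0.61, 0.71 and 0.40 on the 3 slides, 0.67 among the GLU mice and 0.50 among the GLU+GAL mice. Whether the last pair of values differ was not tested.

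**Figure D3:**
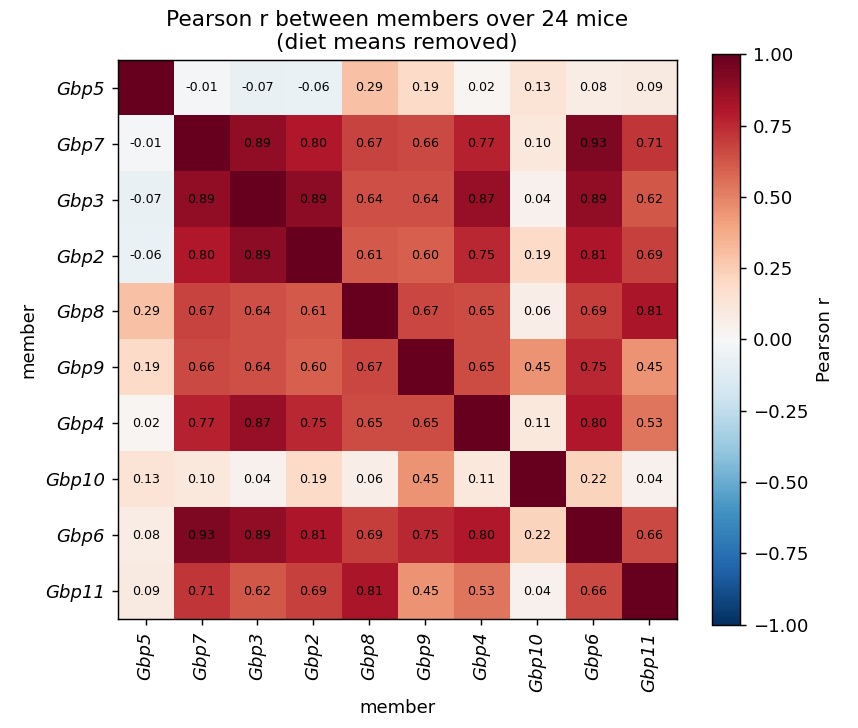
Pearson's r over 24 mice between each pair of the 10 genes, with the diet means removed, coloured from blue for negative to red for positive. Gbp2, Gbp3, Gbp4, Gbp6, Gbp7, Gbp8 and Gbp11 have an r between 0.53 and 0.93 with each other, and the rows of Gbp5 and Gbp10 are paler.

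Gbp5 and Gbp10 did not follow the others. Set against the mean of the other 9 genes, r was 0.91 for Gbp6, 0.87 for Gbp7, 0.84 for Gbp3, 0.82 for Gbp2, 0.80 for Gbp4 and Gbp8, 0.75 for Gbp9 and 0.71 for Gbp11. It was 0.17 for Gbp10 and 0.07 for Gbp5. The pairs of Gbp5 had a median r of 0.08, the lowest being -0.07 with Gbp3. For Gbp5 this depended on the diet and on GLU 11. The median of its pairs was -0.13 among GLU mice, 0.40 among GLU+GAL mice and 0.20 without GLU 11. For all 45 pairs these medians were 0.67, 0.50 and 0.41, and for the pairs of Gbp10 they were 0.25, -0.07 and -0.10. The pairs of Gbp10 had a median r of 0.11, and the highest was 0.45 with Gbp9, with which its probe shares transcripts in the files' listing.

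For Gbp5 the value depended on the probe. The probe used carried no RefSeq transcript in the files' listing, only an Ensembl one, while the second was listed for the RefSeq transcript of Gbp5. Both were well above background on 24 of 24 arrays. The second probe ran from -0.64 through -0.15 to 0.54 on GLU and from -0.94 through -0.39 to 0.01 on GLU+GAL. GLU 11 was its highest mouse, as in the other 9 genes. Its difference between diets was -0.21 ± 0.11 (SE), at an unadjusted p of 0.0801, with the sign opposite to that of the probe used. Its r with the mean of the other 9 genes was 0.59, and rho 0.49, against 0.07 and 0.15 for the probe used. Without GLU 11 these r were 0.38 and 0.31, a narrower gap. The probes correlated with each other at r = 0.19. The comparison of probes was made after their values were seen, and gets no test.

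**Figure D4:**
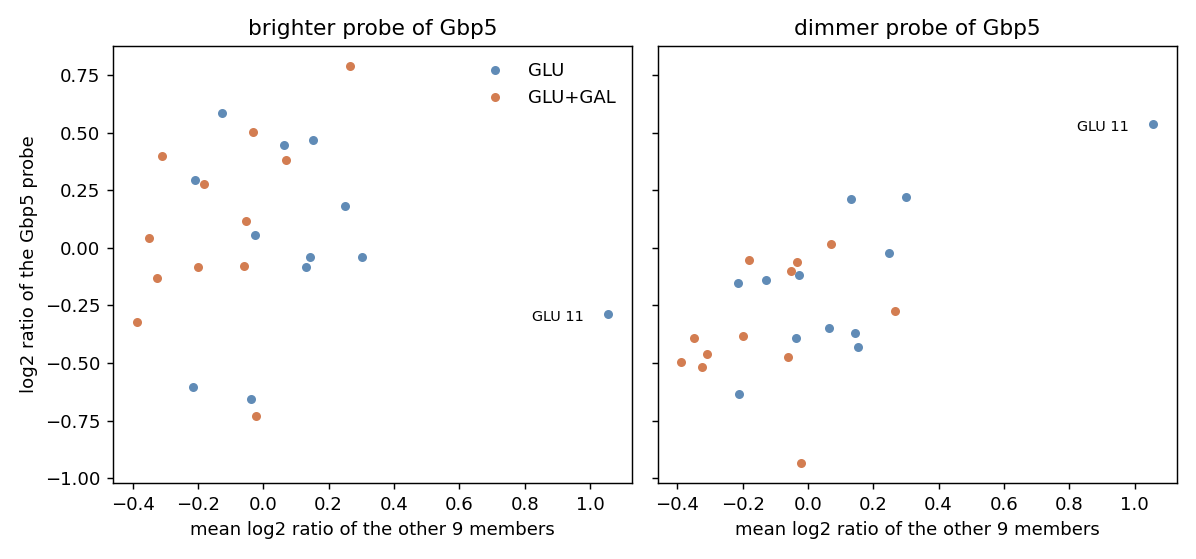
The log2 ratio of the Gbp5 probe used, which is the brighter (left), and of the second probe (right) against the mean log2 ratio of the other 9 genes (horizontal axes), 1 point per mouse, coloured by diet. GLU 11 lies at the far right of both plots, at 0.54 in the second probe and -0.29 in the probe used.

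Upstream of the family, interferon-gamma itself was near the limit of the array. Ifng was well above background on 1 of 24 arrays and was not tested. Of the 11 genes listed for this pathway 10 were tested, with a median difference of -0.17. All 10 had a lower mean on GLU+GAL, against 49.2% of all genes, and 2 did so at an unadjusted p under 0.05, against 2.65%. Those 2 were Ifngr1, the ligand-binding chain of the receptor, at -0.16 ± 0.07 (SE; p = 0.0220 in limma), and the transcription factor Irf1, at -0.20 ± 0.09 (SE; p = 0.0415). Ifngr2, the other chain, was at -0.03 and the kinases Jak1 and Jak2 at -0.03 and -0.10. With diet means removed, the mean of the 10 tested genes correlated with the family mean at r = 0.83, and at 0.70 without GLU 11. On slides 1, 2 and 3 alone this r was 0.76, 0.99 and 0.43. Among single genes, r with the family mean was 0.70 for Irf8, 0.46 for Irf1 and 0.09 for Jak1. No listed gene of any pathway or cell type passed the adjusted threshold, and all lists were written with earlier results in view.

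The immunity-related GTPases work beside the family and varied with it. Of 8 listed as such, all 7 that were tested had a lower mean on GLU+GAL at an unadjusted p under 0.05, against 2.65% of all genes. Their median difference was -0.42. Irgb10, also an immunity-related GTPase but listed with the inflammasome genes, had a lower mean at an unadjusted p of 0.0708 in limma. Igtp was at -0.62 ± 0.18 (SE; p = 0.00196), Irgm2 at -0.42 ± 0.13 (p = 0.00364), Iigp1 at -0.41 ± 0.12 (p = 0.00242) and Gm4951 at -0.36 ± 0.10 (p = 0.000968), with limma adjusted p between 0.784 and 0.983. Ifi47 was at -0.47 ± 0.16 and Irgm1 at -0.28 ± 0.10. The mean of the 7 genes, without Irgb10, correlated with the family mean at r = 0.88, and at 0.74 without GLU 11. Among type I interferon genes the mean was lower for 20 of 21, against 49.2% of all genes, with 2 at an unadjusted p under 0.05. The lowest p was that of Cmpk2, at -0.34 ± 0.11 (p = 0.00512 in limma). The mean of the 21 genes had an r of 0.63 with the family mean, and of 0.60 without GLU 11. All 4 chemokines that interferon-gamma induces had a lower mean, against 49.2% of all genes. Cxcl10 had the lowest p, at -0.43 ± 0.14 (p = 0.00454 in limma). The mean of the 4 had an r of 0.79 with the family mean, and of 0.72 without GLU 11.

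Guanylate-binding proteins act on inflammasomes and are themselves guided and lipid-modified by other enzymes. Of 9 inflammasome genes tested, 8 had a lower mean, against 49.2% of all genes. None of the 9 reached an unadjusted p under 0.05, and their median difference was -0.10. Their mean correlated with the family mean at r = 0.71, and at 0.50 without GLU 11. The largest difference was that of Irgb10, an immunity-related GTPase that acts on bacteria, at -0.20 ± 0.11 (SE), with an r of 0.84. Il1b, the inflammatory cytokine, was at -0.17 ± 0.11. Casp4, which senses lipopolysaccharide in the cytosol, was at -0.11 ± 0.09 (SE), and Gsdmd, which forms the membrane pore, at -0.11 ± 0.06. Aim2, a sensor of DNA in the cytosol, was at -0.06 ± 0.16 and was above background on 15 arrays. The 10 ubiquitin-like conjugation genes, which guide these GTPases to vacuoles, had a median difference of -0.0022, with 5 lower. The 5 prenylation genes tested, which attach the lipid to some members or act on the protein afterwards, had 2 lower and a median of 0.0015. None of these 15 genes reached an unadjusted p under 0.05 in either direction.

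The genes most like the family in their pattern over the 24 mice, with diet means removed, were Psmb8 (r = 0.92), Tgtp2 (0.91), Psmb9 and Igtp (0.90 each) and Gbp2b, Irgm2, H2-Aa and H2-DMb1 (0.87 each), then BC023105 (0.86) and Ly6a (0.85). Psmb8 and Psmb9 encode immunoproteasome subunits, and H2-Aa and H2-DMb1 belong to MHC class II presentation. Without GLU 11, r was between 0.69 for Ly6a and 0.84 for Psmb8. On slide 3 alone BC023105 had an r of 0.26, Ly6a of 0.46 and H2-Aa of 0.49, and the other 7 genes between 0.70 and 0.84. Of all genes tested, 0.510% had an r of 0.7 or more, and the median was -0.0025. The genes at the other end were Rnase10 at -0.71, Olfr430 at -0.66 and Gid4 at -0.65. Gbp2b, which lies between Gbp3 and Gbp2, was well above background on 9 GLU and 8 GLU+GAL arrays and differed between the diets by -0.17 ± 0.16 (SE).

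Markers of the cells that the liver holds varied with the family to unequal degrees, and their part in the differences was not tested. In whole liver, fewer cells of a type and less RNA per cell cannot be told apart. All 12 Kupffer cell markers, genes of the resident macrophages of liver, were well above background on all arrays. In all 12 the mean was lower on GLU+GAL, against 49.2% of all genes. In 6 it was lower at an unadjusted p under 0.05, against 2.65% of all genes. The mean of the 12 ran from -0.10 through 0.13 to 0.77 on GLU, highest in GLU 11. On GLU+GAL it ran from -0.53 through -0.08 to 0.34, highest in GLU+GAL 11. Clec4f was at -0.22 ± 0.10 (SE) and Marco at -0.54 ± 0.21. The r of this mean with the family mean was 0.71 over all mice, 0.58 without GLU 11, and 0.78, 0.81 and 0.82 on the 3 slides.

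T and NK cells, the source of interferon-gamma, had 9 of 12 markers above the filter. All 9 had a lower mean and 1 did so at an unadjusted p under 0.05, against 49.2% and 2.65% of all genes. Their mean ran from -0.06 through 0.08 to 0.50 on GLU and from -0.24 through 0.05 to 0.15 on GLU+GAL, and its r with the family was 0.82, or 0.69 without GLU 11. Of the 5 neutrophil markers tested 4 had a lower mean, against 49.2% of all genes, and r was 0.55. Ly6g was at -0.23 ± 0.06 (SE; p = 0.000756 in limma). Of the 4 B cell markers 3 were tested, all 3 were lower, against the same 49.2%, and r was 0.48. Sinusoidal endothelial markers, 8 of 8 tested, had a median difference of 0.0078 and an r of 0.19, and the 5 stellate cell markers had an r of 0.09. The 8 hepatocyte markers were well above background on all arrays, as the label of the tissue has it, and their r was -0.15. Of these 5 had a lower mean on GLU+GAL, against 49.2% of all genes. The unadjusted p in limma was under 0.05 for Apoa1, at -0.22 ± 0.10 (SE), and Alb, at -0.17 ± 0.08. Cholangiocyte, skeletal muscle and pancreas markers had 2 of 4, 3 of 5 and 2 of 5 tested, with r of -0.13, 0.04 and 0.39. These r are descriptions over 24 mice that share a common pool, and carry no p because the family was chosen with results known.

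**Figure D5:**
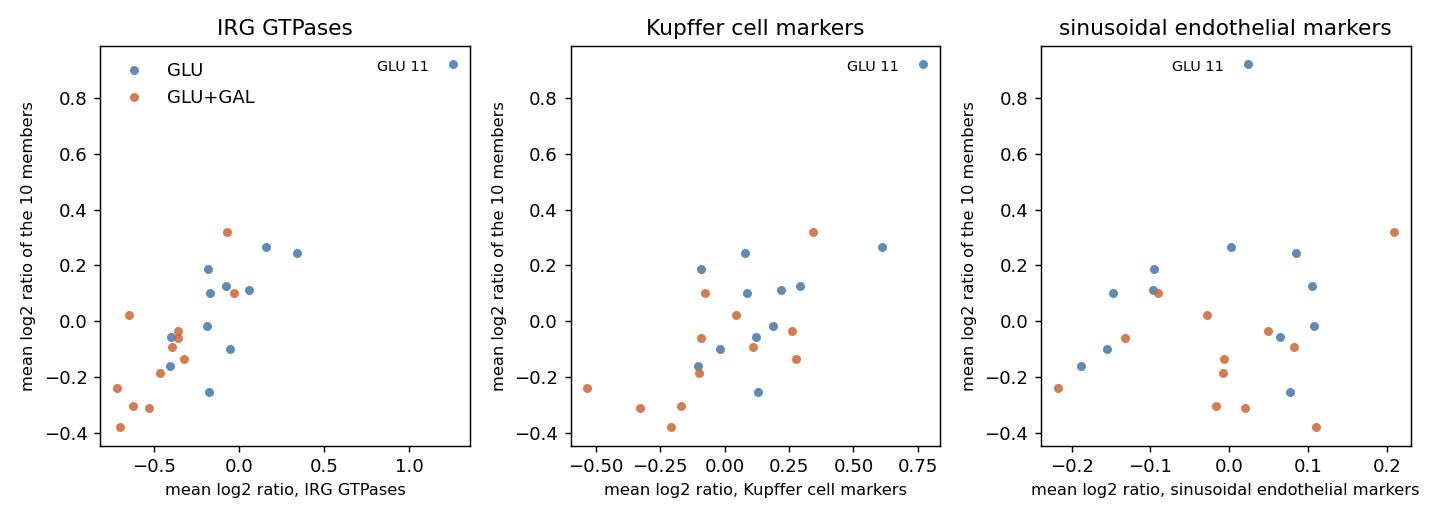
The mean log2 ratio of the 10 family genes (vertical axes) against that of the immunity-related GTPases, the Kupffer cell markers and the sinusoidal endothelial markers (horizontal axes), 1 point per mouse, coloured by diet. The family mean goes up with the first mean and with the Kupffer cell mean, at r of 0.88 and 0.71 with diet means removed, and less with the endothelial mean, at 0.19.

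Over the whole series, an array had 46.6% to 51.3% of its spots well above background in Cy5 and 36.5% to 47.8% in Cy3. The array GLU+GAL 4 had the lowest Cy3 share and the largest spread of log ratios, at an SD of 0.44 against 0.33 for the next array. It was the highest GLU+GAL mouse for Gbp9. No array was a copy of another, with a highest correlation of log2 Cy5 signal between arrays of 0.9966.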

How the data were processed

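The authors deposited spot intensity values for Cy5 and Cy3; the submitters' processing notes name Agilent Feature Extraction 10.7.3.1. They also deposited a table of log2 values for 29287 spots. Its 24 columns followed the Cy5 signals of their own arrays (r from 0.993 to 0.999), each with a median of 8.6 and genes not centred, and how it was scaled stays unknown.

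Mean signals were corrected by normexp (offset 50) and normalised by loess within arrays, with controls at weight 0 (limma 3.58.1, R 4.3.3, data.table version 1.17.8). Plots used matplotlib 3.10.9. Cy5 signal had to be well above background on 6 or more arrays of a diet, which left 26675 of 56605 probes and 18633 genes. Accessions named 32994 probes, symbols 10224 and older symbols 520, while 12867 kept the file's name alone. Diets were compared over 24 arrays with lmFit and eBayes, 2-sided, with Benjamini-Hochberg adjustment. The number of arrays limits the precision. In simulated data of 18633 genes and 12 mice per diet, 68% of 50 genes changed by 0.3 were recovered, 98% at 0.6 and 100% at 1.0 and 1.5. The changed genes were drawn from all genes tested, with independent normal values and no outlying mouse. All sizes were simulated in the same data, so genes with larger changes eased the adjusted threshold for those changed by 0.3. No gene passed that threshold in the real data, so 68% can be too high for this series. The members had a larger within-diet SD than the median gene, so these shares do not give the recovery for the family.

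The members and lists were chosen with earlier results of these data known. Beside the 10 members, the text names the 10 genes most and the 3 least correlated with the family mean, listed genes at an unadjusted p under 0.01, and a set of pathway genes, of which 1 is not reported here. Correlations with lists had a planned permutation test, left out because a mean over chosen members gets no p. Protein sequences were not used here. Alternatives covered background, normalisation, Cy5 alone, the value table, the filter, probe choice, variance settings, slide, replicate number and left-out arrays.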

Additional observations from a re-analysis of the deposited data

How the results depend on the processing

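Over 18 planned and added settings the median difference of the 10 genes stayed below 0, from -0.47 (within slide 2) to -0.10, and none of them gave a gene past the adjusted threshold, while leaving out GLU 3 gave 1 over all genes, which was no member. Gbp2, Gbp6, Gbp7, Gbp8, Gbp9 and Gbp11 kept a lower mean on GLU+GAL in every setting run. Gbp5 turned to -0.069 as the mean over its probes, -0.0015 with array weights, -0.32 within slide 3, -0.022 without both GLU 11 and GLU+GAL 11, and -0.21 by its second probe; the last 2 settings were chosen after seeing the data. Within slide 1, Gbp3 was at 0.10 and Gbp4 at 0.055. Gbp10 was at 0.17 within slide 3 and 0.031 without both mice. With Agilent's processed signals, Gbp4 was at -0.31, Gbp8 at -0.39 and Gbp9 at -0.27, each larger in size than with the processing used. The cause was not tested.

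Leaving out each mouse in turn gave -0.37 to -0.23 for Gbp2, -0.28 to -0.10 for Gbp3, -0.23 to -0.12 for Gbp4, 0.0067 to 0.15 for Gbp5, -0.50 to -0.30 for Gbp6, -0.46 to -0.30 for Gbp7, -0.25 to -0.15 for Gbp8, -0.11 to -0.03 for Gbp9, -0.045 to 0.023 for Gbp10 and -0.47 to -0.32 for Gbp11. The median was between -0.26 and -0.14, adjusted calls over all genes between 0 and 1, and unadjusted calls between 654 and 974.

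Unadjusted calls over all genes were 803, and 377 with median centring, 1242 with no filter (37008 genes), 1269 within slide 1 and 1625 within slide 2. Members at an unadjusted p under 0.05 were 4, and 0 within slide 1, 2 within slide 3 and 4 to 6 with 1 mouse left out. With Agilent's processed signals the median SD percentile was 83.2, and without GLU 11, a setting added after seeing the data, 88.4. The median r over pairs was 0.40 within slide 3, 0.50 within GLU+GAL and 0.41 without GLU 11.

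The labels do not say that a replicate number marks shared mice, and the numbers were not taken to pair them. The correlation of same-numbered mice ran from -0.38 to 0.52 and was above 0.1 in 8 of 12 pairs. Of the 12 GLU mice, 2 correlated best with their own number. These correlations had no background to compare with, so they cannot decide whether the numbers mark pairs. With the replicate block 0 genes passed the adjusted threshold, 1122 had an unadjusted p under 0.05, and 7 members did. The block lowered the standard error of all 10 members, for Gbp2 from 0.13 to 0.064, with an unadjusted p of 0.000127 and an adjusted p of 0.314 in limma.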
